A study of Mus musculus with 3 samples.

Results

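The T-box family was examined through 9 of the 31054 features counted in mouse embryos: T (brachyury), Eomes, Tbx1, Tbx2, Tbx3, Tbx4, Tbx5, Tbx18 and Tbx20. They were chosen by gene symbol alone, and each was found exactly 1 time among the features. Unique molecular identifiers (UMIs, which count each captured RNA molecule a single time) came from 3 whole embryos, each dissociated and captured as its own droplet library with a 3′ version 3 kit. The embryos were male and wild type, of the C57BL/6 x 129 SvEv strain, and were collected at embryonic day 8 with 0 to 2 somites by the sample labels (0 to 1 by the protocol). There was no treated or mutant group, so the comparisons are between lineages within these embryos, with the embryo as the replicate (n = 3). The extraembryonic tissue had been cut away for genotyping, although cells with markers of extraembryonic endoderm, extraembryonic mesenchyme, allantois and blood remained.

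T-box factors are transcription factors that share a DNA-binding domain, the T-box, which contacts a short element with the half-site AGGTGT. They act in combinations: T and Eomes in the primitive streak and its mesoderm and endoderm, Tbx1 in the pharyngeal and head mesoderm, Tbx5, Tbx20 and Tbx18 in the heart and somites, and the related Tbx2, Tbx3, Tbx4 and Tbx5 in heart, limb and allantois. Tbx2 and Tbx3 act mostly as repressors, and Tbx5 and Tbx20 cooperate with Gata4 and Nkx2-5 at cardiac genes.

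On mouse build GRCm38, Tbx2 (chr11:85832551-85841948, plus strand) and Tbx4 (chr11:85886422-85916097, plus strand) lie 44473 bases apart, with 1 other protein-coding gene between them. Tbx3 (chr5:119670669-119684724, plus strand) and Tbx5 (chr5:119832668-119885219, plus strand) lie 147943 bases apart with 0 protein-coding genes between them. T is at chr17:8434423-8442496 on the plus strand and Tbx1 at chr16:18580979-18590671 on the minus strand. Eomes (chr9:118478212-118486132, plus strand), Tbx18 (chr9:87702800-87731260, minus strand) and Tbx20 (chr9:24718138-24774303, minus strand) share chromosome 9. Eomes and Tbx3 each overlap a counted gene on the opposite strand, Gm33460 and Tbx3os1, which a stranded 3′ kit counts apart. The 250 bases before a RefSeq start (build GRCm38.p6) are shown for the members whose lineages carry the results, with any half-site AGGTGT, on this strand or as ACACCT on the other, in capitals. By mean level, T and Eomes were highest in the left-right organizer, Tbx1 in head mesoderm and Tbx20 in cardiomyocytes.
T, chr17:8434173-8434422, plus strand: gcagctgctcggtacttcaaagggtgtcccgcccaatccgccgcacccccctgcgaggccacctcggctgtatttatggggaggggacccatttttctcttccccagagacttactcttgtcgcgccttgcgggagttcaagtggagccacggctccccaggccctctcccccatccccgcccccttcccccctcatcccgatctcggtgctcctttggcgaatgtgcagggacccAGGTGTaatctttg
Eomes, chr9:118477939-118478188, plus strand: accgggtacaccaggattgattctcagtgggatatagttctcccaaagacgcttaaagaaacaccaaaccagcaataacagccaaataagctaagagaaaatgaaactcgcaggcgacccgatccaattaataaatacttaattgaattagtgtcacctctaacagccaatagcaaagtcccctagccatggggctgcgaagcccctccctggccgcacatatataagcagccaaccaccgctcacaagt
Tbx1, chr16:18590672-18590921, minus strand: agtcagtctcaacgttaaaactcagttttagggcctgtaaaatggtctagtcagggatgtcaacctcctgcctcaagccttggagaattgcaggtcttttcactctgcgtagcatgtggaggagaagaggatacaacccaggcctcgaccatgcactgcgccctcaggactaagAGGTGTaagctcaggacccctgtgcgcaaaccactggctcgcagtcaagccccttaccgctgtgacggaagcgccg
Tbx20, chr9:24774304-24774553, minus strand: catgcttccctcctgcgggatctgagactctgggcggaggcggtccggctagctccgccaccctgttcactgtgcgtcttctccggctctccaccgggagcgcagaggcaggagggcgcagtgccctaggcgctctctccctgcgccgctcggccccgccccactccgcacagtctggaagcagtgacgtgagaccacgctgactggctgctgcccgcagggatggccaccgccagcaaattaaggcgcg
The half-site was found in the windows of T and of this Tbx1 start. It was not among the letters of the windows of Eomes, Tbx4, Tbx18 and Tbx20, nor of a downstream Tbx1 start. For comparison, 11.8% of 32851 promoter windows of the same length held it, so that the matches describe these letters and nothing more. Tbx2, Tbx3 and Tbx5 had no entry in the promoter table.

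Quality control kept 21595 of 23533 barcodes, with a median of 27635, 14615 and 16332.5 UMIs per cell in embryos 1, 2 and 3, and the libraries shared 18 to 22 barcodes pairwise. Cells were sorted into 17 lineages by marker genes, none of them a T-box gene, and each lineage is called by its markers with the ending "-like". A total of 13667 cells (63.3%) received a lineage, and 2356 of these lay near the score limit, because the gate takes a range of a continuous score. Among the 10 genes with the largest fold in each lineage, 2 to 7 were its own markers. No single other list gave more than 1. In axial mesoderm-like cells 2 were their own markers (Shh and Nog), and Cer1 and Dand5 came from the gut endoderm and organizer lists. Levels are CPM, the UMIs of a gene scaled to a common total of UMIs, from the summed cells of a lineage in an embryo. In counts of UMIs over all cells, fewer cells of a type and less RNA per cell cannot be told apart. Erythroid-like cells served as a low reference for these genes. Their share with a UMI was 4.14% ± 2.21 for T, 1.79% ± 0.630 for Tbx3 and 1.16% ± 0.689 for Tbx1 (SD, n = 2). It was 1.03% ± 0.0360 for Tbx4, 0.864% ± 0.273 for Tbx20 and 0.403% or less for the other 4 members. Embryo 1 held only 2 such cells and was left out. Whether these UMIs came from free RNA, doublets or the cells themselves was not tested. Erythroid-like cells had a median depth of 15175 UMIs against 12055 to 22080 in the other lineages.

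Over all lineages, the members were distributed very unevenly. Among 153 combinations of a member with a lineage, tested against all other cells of the same embryos, 22 were higher and 77 lower at an adjusted p of 0.05 (edgeR quasi-likelihood test on sums per embryo). Across the 17 comparisons, 9.95% to 70% of all genes tested passed in either direction, so each count is set beside the share of its own comparison. Tbx2 and Tbx4 were higher in a single lineage, the allantois-like cells. Eomes, Tbx5 and Tbx18 rose in 2 lineages each, Tbx1 and Tbx3 in 3, and T and Tbx20 in 4. Cells without a lineage held from 30.1% (Eomes) to 54.7% (Tbx1) of the UMIs of each member. They were part of all other cells in each of these comparisons.

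**Figure D1:**
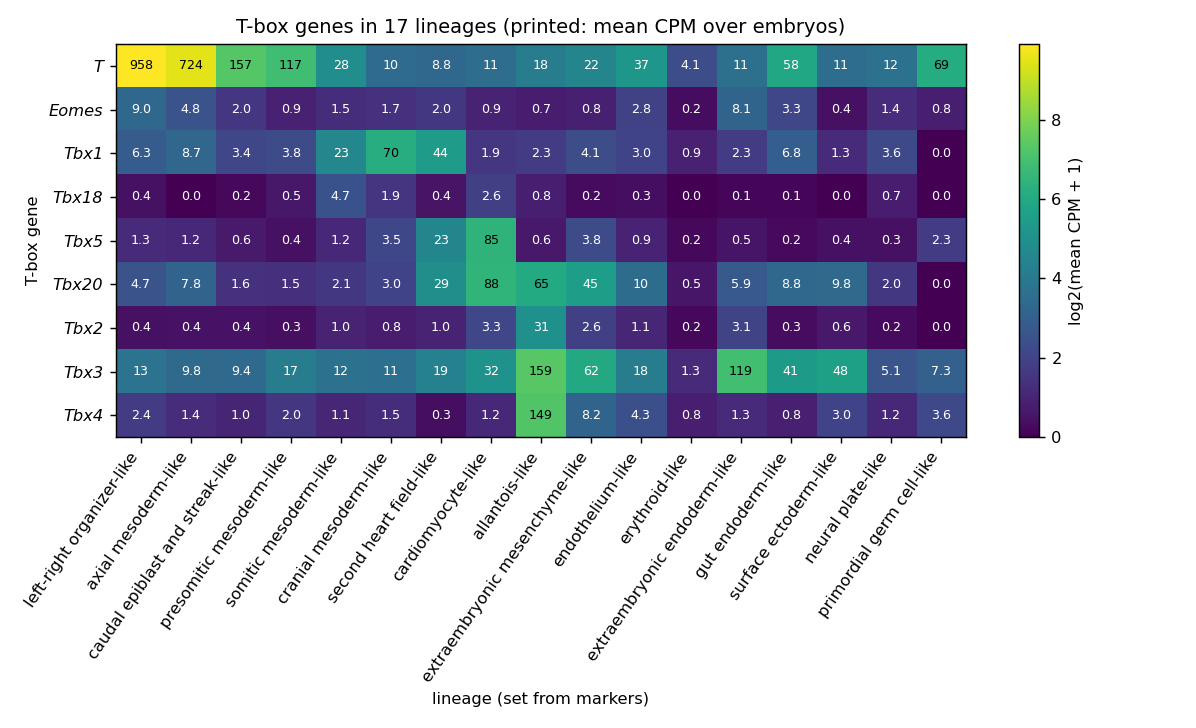
Level of the 9 T-box genes (rows) in 17 lineages (columns). The number in each cell is the mean CPM over embryos (2 embryos for erythroid-like cells) and the colour is log2(mean CPM + 1). T stands out in the left-right organizer- and axial mesoderm-like cells (958 and 724 CPM), Tbx4 in allantois-like cells (149 CPM) and Tbx5 with Tbx20 in cardiomyocyte-like cells (85.5 and 88.4 CPM).

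T, the founding member, which drives mesoderm and notochord formation, was at 1070, 960 and 844 CPM in the left-right organizer-like cells (the ciliated pit that sets the left-right axis) of embryos 1, 2 and 3. All 140 of these cells held a UMI of T. In axial mesoderm-like cells, set by Shh, Chrd, Nog, Foxa2 and Gsc, T was at 738, 559 and 876 CPM. A UMI of T was in 88.8% ± 11.7 of them (SD, n = 3). The paper describes its axial mesoderm cluster as holding both notochord and prechordal plate cells, with Gsc marking the prechordal plate. No score margin was required between this lineage and the left-right organizer. Dand5, an organizer marker of the gate, was among the 10 genes with the largest fold in axial mesoderm-like cells. So was Cer1, a gut endoderm marker of the gate. The paper reports that its axial mesoderm cluster lacked Dand5. With a further marker required, 74 of the 123 axial mesoderm-like cells remained. The ranges of T in the organizer- and axial mesoderm-like cells overlapped, and both lay above every other lineage. T was far lower in caudal epiblast and streak-like cells, at 162, 151 and 157 CPM, and in presomitic mesoderm-like cells, at 111, 104 and 134 CPM. Over the 3 embryos the SDs there were 5.42 and 16.0 CPM. Against all other cells T was higher by 4.19 ± 0.15 (log2, SE) in the left-right organizer-like cells, by 3.81 ± 0.18 in axial mesoderm-, by 1.92 ± 0.13 in caudal epiblast- and by 1.23 ± 0.14 in presomitic mesoderm-like cells (edgeR adjusted p = 3.8e-09, 2.1e-07, 5.1e-05 and 0.00032).

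T was also found in lineages outside the midline and streak. Gut endoderm-like cells held 53.9, 59.5 and 61.6 CPM, with a UMI in 40.2% ± 3.37 of cells (SD, n = 3), close to the level of all other cells (log2 difference 0.10 ± 0.13, edgeR adjusted p = 0.62). Primordial germ cell-like cells held 92.5, 16.1 and 97.3 CPM, so that embryo 2, with 12 such cells, stood apart from the other embryos. The difference from other cells was 0.60 ± 0.29 (edgeR adjusted p = 0.21), and 0.55 with an adjusted p of 0.042 when the embryo was a block in the fit. Endothelium-like cells held 48.7, 23.7 and 37.6 CPM, a difference of -0.46 that passed only with the embryo as a block (adjusted p = 0.12 without and 0.0015 with it). Thinned to 5000 UMIs per cell, T was detected in 91.4% ± 0.494 of left-right organizer-, 45.2% ± 1.96 of caudal epiblast- and 21.2% ± 5.90 of gut endoderm-like cells, against 1.20% ± 0.200 of erythroid-like cells.

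Eomes, which specifies definitive endoderm and early mesoderm, was at low levels, with 1235 UMIs in all kept cells. Its mean level was highest in left-right organizer-like cells, at 10.0, 9.21 and 7.78 CPM on 25 UMIs. Extraembryonic endoderm-like cells followed, at 6.4, 7.77 and 10.2 CPM on 456 UMIs. These ranges overlapped, and both lay above the 3.65 to 5.82 CPM of axial mesoderm-like cells. The extraembryonic endoderm-like cells held 36.9% of all Eomes UMIs. Against all other cells Eomes was higher by 2.52 ± 0.27 (log2, SE) in extraembryonic endoderm- and by 1.75 ± 0.33 in left-right organizer-like cells (edgeR adjusted p = 3.0e-05 and 0.0031). A UMI of Eomes was seen in 17.1% ± 5.19 of left-right organizer-like cells, and in 2.32% ± 2.15 after thinning, so that most cells of that lineage were below detection at the thinned depth. In extraembryonic endoderm-like cells the shares were 16.3% ± 2.94, and 4.15% ± 0.685 after thinning (SD, n = 3). The order of the 2 lineages thus depended on the measure.

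Among the 9 members, 2 rose and 3 fell in left-right organizer-like cells, where 25.4% of all genes passed. With the embryo as a block 6 fell, but calls over all genes rose too, and 25.4% is the share without the block. In axial mesoderm-like cells 1 rose and 2 fell (13.6% of all genes), in caudal epiblast and streak-like cells 1 rose and 6 fell (21.6%), and in presomitic mesoderm-like cells 1 rose and 7 fell (15.4%). The member that rose in all 4 lineages was T.

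Tbx1, which patterns the pharynx and head mesoderm, was at 58.3, 86.7 and 65.6 CPM in cranial mesoderm-like cells, at 39.6, 54.5 and 37.4 CPM in second heart field-like cells and at 24.5, 21.9 and 21.7 CPM in somitic mesoderm-like cells. No embryo of a lower lineage reached the range of the lineage above it. A UMI was present in 55.1% ± 3.59, 39.4% ± 3.98 and 23.5% ± 3.90 of these cells (SD, n = 3). Tbx1 was higher than in all other cells by 2.95 ± 0.16, 2.29 ± 0.16 and 1.20 ± 0.15 (log2, SE, edgeR adjusted p = 6.6e-06, 5.7e-05 and 0.00079). Cells without a lineage held 2828 of its 5168 UMIs and were part of the cells it was set against. The order among the 3 lineages depended on how they were gated: with a further marker required, Tbx1 was at 49.5 ± 2.38 CPM in cranial mesoderm-, 50.5 ± 10.8 in second heart field- and 45.1 ± 11.3 in somitic mesoderm-like cells, the last with only 54 cells in all.

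Tbx18, a factor of the anterior part of each somite and of the heart's venous pole, was the sparsest member, with 315 UMIs in all kept cells. Somitic mesoderm-like cells held 46 of them, at 8.16, 3.91 and 1.91 CPM, and cardiomyocyte-like cells held 18, at 3.03, 2.34 and 2.55 CPM. The ranges overlapped. Both were higher than all other cells, by 3.27 ± 0.45 and 2.22 ± 0.46 (log2, SE; edgeR adjusted p = 0.0013 and 0.0090). Cells without a lineage held 162 of the Tbx18 UMIs and were part of the cells it was set against. The call in cardiomyocyte-like cells was lost without embryo 2 or without embryo 3 (edgeR adjusted p = 0.086 and 0.074). Cranial mesoderm-like cells held 17 UMIs, a difference of 1.60 ± 0.48 that passed only with the embryo as a block (edgeR adjusted p = 0.058 without and 0.021 with it). No UMI was seen in 851 and 298 erythroid-like cells of embryos 2 and 3, which allows shares of up to 0.353% and 1.01%.

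In cranial mesoderm-like cells 1 member rose and 4 fell, beside 12.5% of all genes called, and in somitic mesoderm-like cells 2 rose and 5 fell, beside 11.2%.

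Tbx5, which drives heart and forelimb development, had its highest levels in the cardiac lineages. Cardiomyocyte-like cells held 95.7, 82.5 and 78.2 CPM and second heart field-like cells, which carry progenitor markers such as Isl1, held 24.8, 17.8 and 25.4 CPM. The next lineage, extraembryonic mesenchyme-like cells, was at 3.60 to 4.07 CPM, and the ranges of all 3 were apart. Against all other cells Tbx5 was higher by 5.06 ± 0.13 in cardiomyocyte- and by 2.88 ± 0.20 in second heart field-like cells (log2, SE; edgeR adjusted p = 3.4e-09 and 5.7e-05). These lineages held 595 and 381 of its 1924 UMIs. Cells without a lineage held 637 and were part of the cells Tbx5 was set against.

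Tbx20, which supports the growth of the early myocardium, was more widely spread. It was at 94.9, 88.7 and 81.6 CPM in cardiomyocyte-like cells, at 65.4, 59.7 and 69.5 CPM in allantois-like cells, at 44.0, 47.9 and 42.7 CPM in extraembryonic mesenchyme-like cells and at 34.5, 23.1 and 29.0 CPM in second heart field-like cells. Each of these 4 ranges lay apart from the next. The differences from all other cells were 2.86 ± 0.12, 2.36 ± 0.11, 2.10 ± 0.10 and 1.19 ± 0.16 (log2, SE), all past the threshold in edgeR (adjusted p = 1.7e-07, 3.2e-06, 1.8e-05 and 0.0019). The extraembryonic mesenchyme-like cells held 27.1% of all Tbx20 UMIs, against 9.04% in the cardiomyocyte-like cells, which are fewer. Cells without a lineage held 32.1% and were part of the cells Tbx20 was set against.

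In cardiomyocyte-like cells 3 members rose and 3 fell, beside 13% of all genes, and in second heart field-like cells 3 rose and 3 fell, beside 11.8%. The members that rose were Tbx5, Tbx20 and Tbx18 in the former, and Tbx1, Tbx5 and Tbx20 in the latter.

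Tbx4, a limb and allantois factor, was far higher in the allantois-like cells than elsewhere, the allantois being a precursor of the umbilical cord. It was at 148, 152 and 147 CPM there, and at 7.25, 8.47 and 8.84 CPM in the next lineage, extraembryonic mesenchyme. The allantois-like cells held 1796 of its 4029 UMIs, and 84.2% ± 2.75 of them had a UMI of Tbx4 (SD, n = 3). Against all other cells Tbx4 was higher by 4.96 ± 0.29 (log2, SE; edgeR adjusted p = 7.1e-06). Cells without a lineage held 1549 of the other Tbx4 UMIs and were part of the cells it was set against.

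Tbx2, a repressor that keeps cells from differentiating in the heart and limb, had its highest level in the same cells, at 28.5, 37.2 and 26.3 CPM. No other lineage exceeded 7.02 CPM in any embryo. Tbx2 was higher than in all other cells by 4.22 ± 0.28 (log2, SE; edgeR adjusted p = 1.3e-05). Its share of cells with a UMI was 39.5% ± 8.27 in allantois-like cells and 6.92% ± 3.83 in extraembryonic endoderm-like cells.

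Tbx3, the closest relative of Tbx2, was much broader than Tbx2. Its levels were 159, 161 and 156 CPM in allantois-like cells, 146, 97.9 and 114 CPM in extraembryonic endoderm-like cells and 66.1, 55.7 and 63.3 CPM in extraembryonic mesenchyme-like cells. Surface ectoderm-like cells followed at 46.2, 40.7 and 57.9 CPM and gut endoderm-like cells at 37.6, 45.8 and 39.6 CPM. The ranges of surface ectoderm-like cells overlapped those of the lineages on either side. In the first 3 of these lineages it was higher than in all other cells, by 2.13 ± 0.13, 2.23 ± 0.15 and 0.81 ± 0.15 (log2, SE; edgeR adjusted p = 1.1e-05, 1.4e-06 and 0.0055). The call in extraembryonic mesenchyme-like cells was lost without embryo 3 (adjusted p = 0.070). In surface ectoderm-like cells the difference was 0.35 ± 0.17 (edgeR adjusted p = 0.26), and 0.40 with an adjusted p of 0.0020 with the embryo as a block.

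Allantois-like cells thus had 4 members higher and 4 lower, beside 21.5% of all genes called. In extraembryonic mesenchyme-like cells 2 rose and 3 fell (26.1% of all genes), and in extraembryonic endoderm-like cells 2 rose and 6 fell (70%). In the other 6 lineages 0 members rose by edgeR: 5 fell in gut endoderm- (31.8% of all genes), 3 in endothelium- (37%), 9 in erythroid- (61.6%, 2 embryos), 7 in neural plate- (28.1%), 4 in surface ectoderm- (9.95%) and 3 in primordial germ cell-like cells (12.4%). These counts are without the embryo as a block. With it, 4 fell in extraembryonic mesenchyme-, 6 in gut endoderm- and 6 in endothelium-like cells. In surface ectoderm-like cells 1 rose and 6 fell, and in primordial germ cell-like cells 1 rose. Of the lineages given earlier, 3 fell with the block in axial mesoderm-, 7 in caudal epiblast-, 4 in cardiomyocyte- and 4 in second heart field-like cells. In cranial mesoderm-like cells 2 rose and 5 fell with it. Calls over all genes rose with the block too, by 1.05 to 2.24 times over the comparisons. The shares of all genes above therefore do not apply to the counts with the block. The median log2 difference of all genes was -0.23 in erythroid- and -0.28 in primordial germ cell-like cells, and within 0.10 of 0 elsewhere. The median of the 9 members was -3.83 in erythroid-like and -2.84 in neural plate-like cells, and 0.30 in allantois-like cells.

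**Figure D2:**
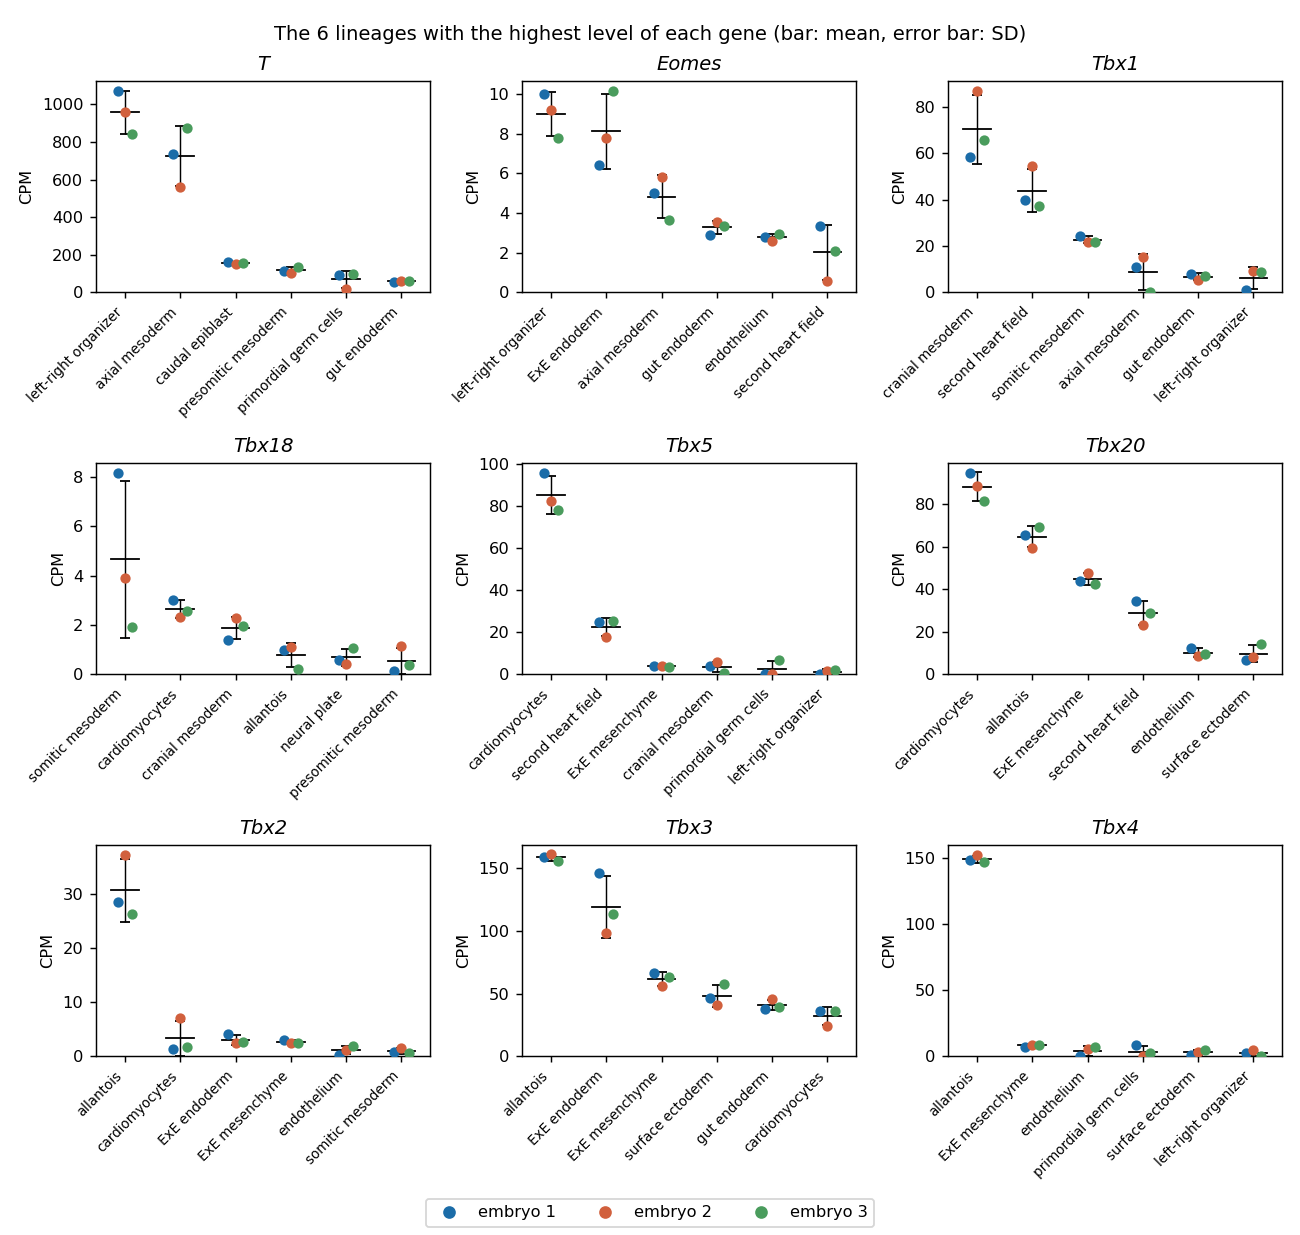
CPM of each T-box gene (y axis, linear) in the 6 lineages where its mean was highest (x axis). Points are embryos, the horizontal bar is the mean over embryos and the error bar is the SD. Tbx4 and Tbx2 fall steeply after the allantois-like cells, whereas Tbx3 and Tbx20 decline stepwise over several lineages.

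The number of different members in a single cell followed the same pattern. Allantois-like cells held a UMI of 3.05 ± 0.380 of the 9 members on average (SD, n = 3), cardiomyocyte-like cells of 2.18 ± 0.291, extraembryonic mesenchyme-like cells of 1.80 ± 0.296, left-right organizer-like cells of 1.47 ± 0.120 and second heart field-like cells of 1.46 ± 0.371. Neural plate-like cells held 0.361 ± 0.0695 and erythroid-like cells 0.0996 ± 0.00625 (n = 2). After thinning to 5000 UMIs the averages were 1.57 ± 0.0408 in allantois-, 1.02 ± 0.0385 in left-right organizer-, 0.952 ± 0.00349 in cardiomyocyte-, 0.905 ± 0.167 in axial mesoderm- and 0.0827 ± 0.0160 in neural plate-like cells. At least 3 members were seen in 68.0% ± 9.21 of allantois-like and 37.0% ± 11.1 of cardiomyocyte-like cells.

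Neighbouring lineages were then compared directly, in 10 pairs. Low counts left 54 of 90 combinations to test, and of these 21 were higher and 13 lower. A member that passes this filter may do so through the lineage where it is high, so these counts describe the tested members and not all 9.

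Between allantois- and extraembryonic mesenchyme-like cells, 4 of 7 members tested were higher in the allantois and 1 lower, beside 13.8% of all genes. Tbx4 differed by 4.15 ± 0.11, Tbx2 by 3.51 ± 0.19, Tbx3 by 1.33 ± 0.09 and Tbx20 by 0.50 ± 0.10 (log2, SE; edgeR adjusted p = 1.0e-09, 6.3e-07, 2.1e-06 and 0.0056). Tbx5 went the other way, by -2.54 ± 0.45 (8 UMIs in allantois- against 159 in mesenchyme-like cells, edgeR adjusted p = 0.0027). The Tbx20 call was lost without embryo 3 (adjusted p = 0.12). T (-0.38) and Tbx1 (-0.79) passed only with the embryo as a block (adjusted p = 0.033 and 0.039).

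Between cardiomyocyte- and second heart field-like cells, 3 of 5 members tested were higher in cardiomyocytes and 1 lower, beside 6.41% of all genes. Tbx5 differed by 1.91 ± 0.14 and Tbx20 by 1.61 ± 0.13 (log2, SE; edgeR adjusted p = 6.3e-07 and 2.5e-06). Tbx1 was lower by -4.29 ± 0.31, with 15 UMIs in cardiomyocyte-like cells against 681 (edgeR adjusted p = 5.9e-07). Tbx3 differed by 0.74 ± 0.18 (edgeR adjusted p = 0.022), a call lost without embryo 1 or embryo 3 (adjusted p = 0.37 and 0.20).

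Cranial mesoderm-like cells set beside second heart field-like cells had 1 member higher and 2 lower of 5 tested, beside 5.24% of all genes. Tbx5 and Tbx20 were lower by -2.75 ± 0.32 and -3.51 ± 0.28 (log2, SE; edgeR adjusted p = 0.00016 and 7.9e-06). The Tbx1 difference of 0.67 ± 0.17 (edgeR adjusted p = 0.035) was lost without embryo 1 or embryo 3 and was -0.0034 with a further marker required. Tbx3 differed by -0.92 (edgeR adjusted p = 0.17, and 0.0030 with the embryo as a block).

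From presomitic to somitic mesoderm-like cells T fell and Tbx1 rose, and the neighbouring steps were less stable. In caudal epiblast- against presomitic mesoderm-like cells 1 of 6 members tested was higher and 1 lower, beside 12.5% of all genes: T by 0.43 ± 0.10 and Tbx3 by -0.82 ± 0.23 (log2, SE; edgeR adjusted p = 0.012 and 0.035). Neither call was kept in every alternative, since that of T was lost without embryo 1 or embryo 2 and that of Tbx3 without any 1 embryo. Presomitic against somitic mesoderm-like cells had 1 higher and 1 lower of 3 tested, beside 5.86% of all genes. T was higher by 2.24 ± 0.24 and Tbx1 lower by -2.65 ± 0.30 in presomitic cells (log2, SE; edgeR adjusted p = 2.6e-05 and 3.5e-05). Somitic against cranial mesoderm-like cells had 0 higher and 1 lower of 3 tested, beside 4.77% of all genes. This was Tbx1, by -1.59 ± 0.16 (edgeR adjusted p = 1.1e-05), and by -0.07 with a further marker required. T differed there by 1.38 ± 0.41 (edgeR adjusted p = 0.072), and by 1.46 with an adjusted p of 8.9e-09 with the embryo as a block.

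Left-right organizer- against caudal epiblast-like cells, which both express T, had 3 of 5 members tested higher and 0 lower, beside 34.2% of all genes. T was higher by 2.49 ± 0.11 and Eomes by 2.02 ± 0.42 (log2, SE; edgeR adjusted p = 3.9e-12 and 0.0010). Tbx20 was higher by 1.44 ± 0.52 on 13 UMIs (edgeR adjusted p = 0.039), a call lost without any 1 embryo, without the filter on low counts and with a further marker required.

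Between the endoderm lineages 5 of 7 members tested were called, 3 higher and 2 lower in extraembryonic than in gut endoderm-like cells. In this pair 62.4% of all genes were called, so the count is near that of any genes and not particular to the members. Tbx2 was higher by 3.69 ± 0.53 (3 UMIs in gut endoderm-like cells), Tbx3 by 1.71 ± 0.14 and Eomes by 1.53 ± 0.26 (log2, SE; edgeR adjusted p = 8.0e-05, 9.8e-07 and 0.00033). T was lower by -2.15 ± 0.15 and Tbx1 by -1.50 ± 0.33 (edgeR adjusted p = 2.0e-07 and 0.0019).

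Surface ectoderm- against neural plate-like cells had 2 members higher and 1 lower of 5 tested, beside 17.9% of all genes. Tbx3 was higher by 3.26 ± 0.19 and Tbx20 by 2.27 ± 0.35 (log2, SE; edgeR adjusted p = 5.2e-08 and 0.00033). Tbx1 was lower by -1.39 ± 0.43 on 9 UMIs (edgeR adjusted p = 0.040), a call lost without any 1 embryo, with DESeq2 and with a further marker required. Extraembryonic mesenchyme- against cardiomyocyte-like cells had 3 of 8 members tested higher and 3 lower, beside 14.7% of all genes. Tbx5 was lower by -4.52 ± 0.13, Tbx18 by -3.54 ± 0.63 on 9 UMIs and Tbx20 by -1.03 ± 0.10, while Tbx4 was higher by 2.47 ± 0.47, Tbx3 by 0.95 ± 0.15 and T by 0.91 ± 0.21 (log2, SE; edgeR adjusted p between 1.7e-10 and 0.0091). The T call was lost without embryo 1 or embryo 3.

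**Figure D3:**
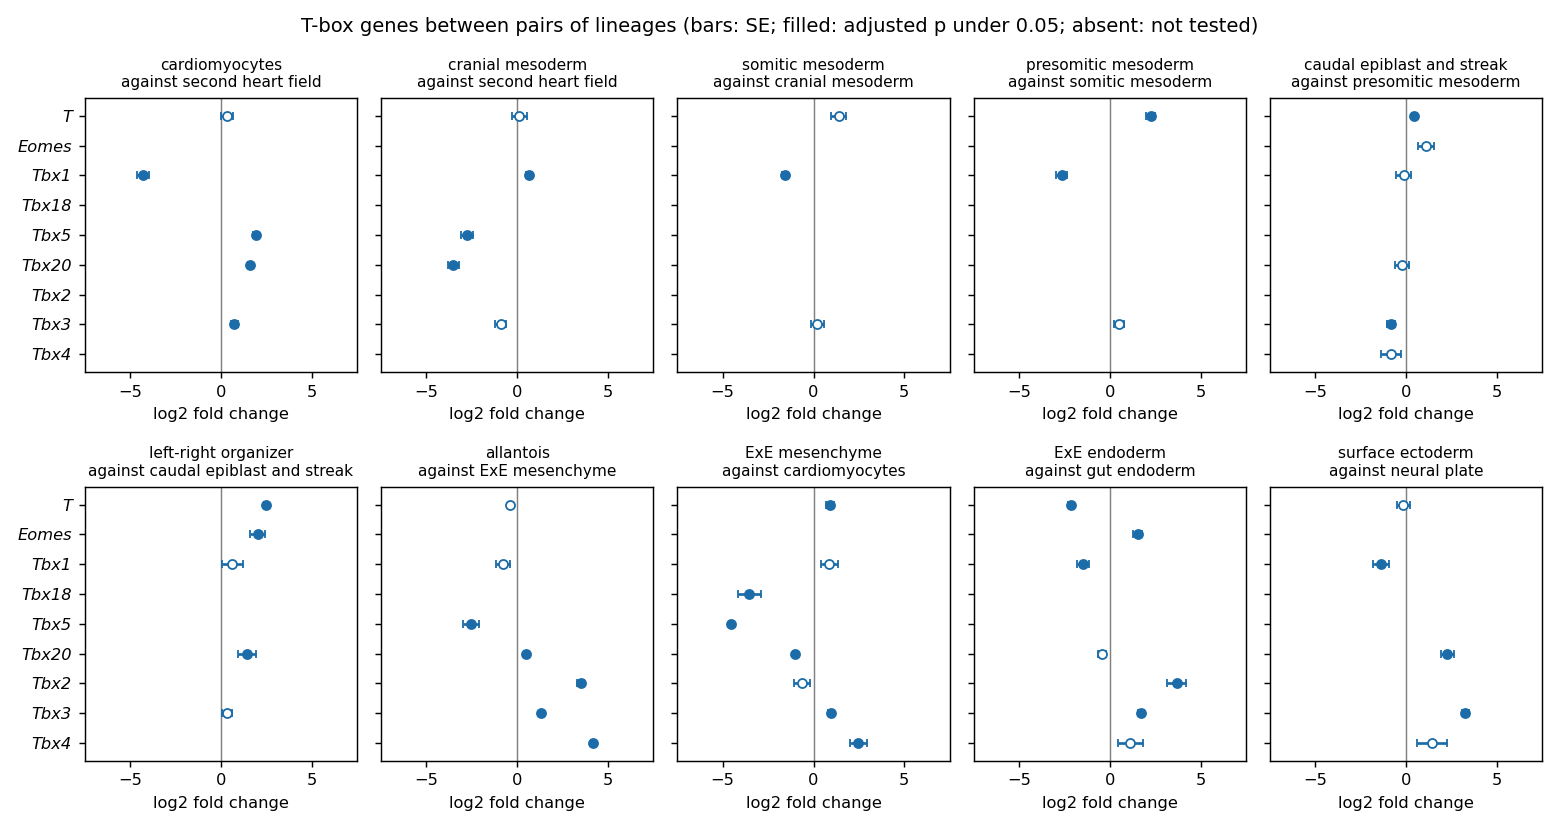
Log2 fold change (x axis) of each T-box gene (y axis) between 10 pairs of lineages, first lineage against second, from edgeR. Bars are SE, filled points passed an adjusted p of 0.05 and genes without a point were not tested. The allantois panel holds 4 filled points to the right, and the cardiomyocyte panel shows Tbx5 and Tbx20 to the right and Tbx1 to the left.

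Co-detection in single cells was examined where both genes of a pair had a UMI in at least 10% of a lineage's cells, which gave 53 pairs in 15 lineages. The number of cells with both genes was divided by the number that independent detection would give in the same embryo. The ratio was above 1 in all 3 embryos for 21 pairs, below 1 for 6 and mixed for 21. It was fixed at 1 for 2 pairs with T in left-right organizer-like cells, where every cell held T, and could not be formed in every embryo for 3 pairs. Deep cells detect more of every gene, which can raise the ratio. After thinning to 5000 UMIs 6 of the 21 kept their side in all embryos. Thinning also left fewer cells with both genes. For T with Tbx3 these were 1 in place of 16 in cranial mesoderm- and 30 in place of 189 in caudal epiblast-like cells. A side can thus change through counting alone, and why sides were lost was not tested. Of the 6 pairs below 1, 3 kept theirs on at least 1 cell with both genes, and another had 0 such cells. These ratios are given as a description, without a test across cells.

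Within second heart field-like cells, Tbx5 and Tbx20 were seen together at 1.45, 1.86 and 1.56 times the expected number in embryos 1, 2 and 3 (125 cells against 81.3 expected). Tbx1 was seen less often than expected with Tbx5, at ratios of 0.723, 0.830 and 0.823 (67 cells against 86.7 expected), and with Tbx20, at ratios of 0.699, 0.764 and 0.613 (73 against 106 expected). After thinning, the mean ratios were 1.73 ± 0.392 for Tbx5 with Tbx20, 0.603 ± 0.121 for Tbx1 with Tbx5 and 0.576 ± 0.380 for Tbx1 with Tbx20 (SD, n = 3), the last on 9 cells and above 1 in 1 embryo. With the embryos pooled, cells with both Tbx1 and Tbx5 had a median of 27078 UMIs and cells with neither 14588. Part of this gap can come from the embryos, whose medians in this lineage were 25964, 12731 and 16776.5. Embryo 1 gave 32 of the 67 cells with both and 86 of the 295 with neither.

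Cells of this lineage with Tbx1 and without Tbx5 (89, 70 and 65 cells per embryo) were set beside cells with Tbx5 and without Tbx1 (69, 28 and 50 cells), a division made after the ratios were seen. Their median depths were similar, at 26020, 13963.5 and 17612 UMIs against 26887, 14273 and 16776.5. The genes followed were T-box-linked genes and Mga, another T-box gene, 22 in all with at least 5 CPM. Of these, 2 were higher with Tbx1 and 5 higher with Tbx5 without overlap of the embryos, whereas 13.7% of all genes at that level did not overlap. Fgf8, a growth factor of the outflow region, was at 97.4, 148 and 134 CPM with Tbx1 and 37.6, 57.8 and 71.6 with Tbx5. Fgf10, a growth factor of the anterior heart field, was at 24.9, 20.3 and 11 CPM with Tbx1 and 6.43, 6.19 and 7.74 with Tbx5. Both growth factors thus lay on the Tbx1 side in every embryo. Gbx2, listed with Fgf10 as linked with Tbx1, overlapped, at 13.9, 19.5 and 10.3 CPM with Tbx1 and 6.43, 14.4 and 22.3 with Tbx5.

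On the Tbx5 side were cardiac transcription factors and a growth factor of the myocardium. Tbx20, whose co-detection ratios had prompted the division and which is not among the 22, was at 71.3, 49.5 and 49.4 CPM with Tbx5 and 15.6, 11 and 8.09 with Tbx1. Gata5 was at 142, 116 and 119 CPM against 28.1, 34.7 and 30.2, and Bmp2 at 59.4, 28.9 and 44.5 against 5.33, 5.07 and 10.3. Gata4, Gata6 and Hand2 were the other 3, with means of 57.2, 241 and 167 CPM against 24.9, 151 and 72.8. Cardiomyocyte markers moved with this division: 5 of 7 (Tnnt2, Myl7, Myl4, Ttn and Nebl) were higher with Tbx5 in every embryo, and the list summed to 788 to 940 CPM with Tbx5 and 189 to 285 with Tbx1. Of 5 second heart field markers, Nkx2-5 and Mef2c were higher with Tbx5 and Irx5 with Tbx1 (summed list 721 to 831 and 581 to 650 CPM). Of 6 cranial mesoderm markers, Foxc2 and Eya1 were higher with Tbx1 (summed list 210 to 239 CPM with Tbx1 and 169 to 252 with Tbx5). Their part in the result was not tested.

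Within gut endoderm-like cells, T was seen with Tbx20 in 8 cells where 24.5 were expected, at ratios of 0.477, 0.113 and 0.383, and after thinning in 0 cells where 2.65 were expected, which is too few to read. T was seen with Tbx3 at ratios of 0.702, 0.447 and 0.703 (37 cells against 61.6 expected). After thinning this ratio was 0.551 ± 0.481 (SD, n = 3), on 11 cells against 17.1 expected. Tbx3 and Tbx20 were seen together at ratios of 2.76, 2.56 and 2.24 (49 cells against 18.9 expected), and at 2.48 ± 0.687 after thinning (SD, n = 3), on 5 cells. Before thinning, T and the pair Tbx3 and Tbx20 tended to be seen in different cells, and the thinned counts were small.

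Gut endoderm-like cells with T and without Tbx20 (68, 71 and 58 cells) were set beside those with Tbx20 and without T (21, 23 and 10 cells), again after the ratios were seen. Their median depths were 34061.5, 19209 and 22185.5 against 29010, 16625 and 18086.5 UMIs. Of 19 genes with at least 5 CPM, again linked genes and Mga, 8 lay higher with T and 3 higher with Tbx20 without overlap. Of all genes at that level, 22.9% did not overlap. Sp5, a transcriptional target of Wnt signalling and T, was at 273, 437 and 303 CPM with T and 14.5, 6.76 and 13.6 with Tbx20. Cdx2, the hindgut homeobox factor, was at 205, 259 and 178 CPM with T and 9.25, 20.3 and 4.54 with Tbx20. Fgf8, Gbx2, Hey1, Mycn, Cdkn1a and Tle1 were the other genes higher with T.

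The linked genes higher with Tbx20 were Gata4, Gata6 and Bmp2. Tbx3, whose ratios had been seen before the division and which is not among the 19, was at 131, 137 and 86.3 CPM with Tbx20 and 15.8, 18.3 and 15.5 with T. Gata4, an endoderm and heart factor, was at 52.8, 47.3 and 49.98 CPM against 6.24, 1.26 and 5.63. Marker lists moved too. Of 8 gut endoderm markers, Sox17 and Nepn were higher with T and Apela and Hhex with Tbx20 (summed list 1690 to 2015 and 1949 to 2263 CPM). Further, 4 of 7 caudal epiblast markers were higher with T (summed list 179 to 255 against 4.54 to 47.3 CPM), and of 8 extraembryonic endoderm markers 2 (Ttr and Spink1) were higher with Tbx20 and 2 (Afp and Amn) with T (summed list 3739 to 4725 CPM with Tbx20 against 1647 to 2598 with T). Their part in the result was not tested.

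**Figure D4:**
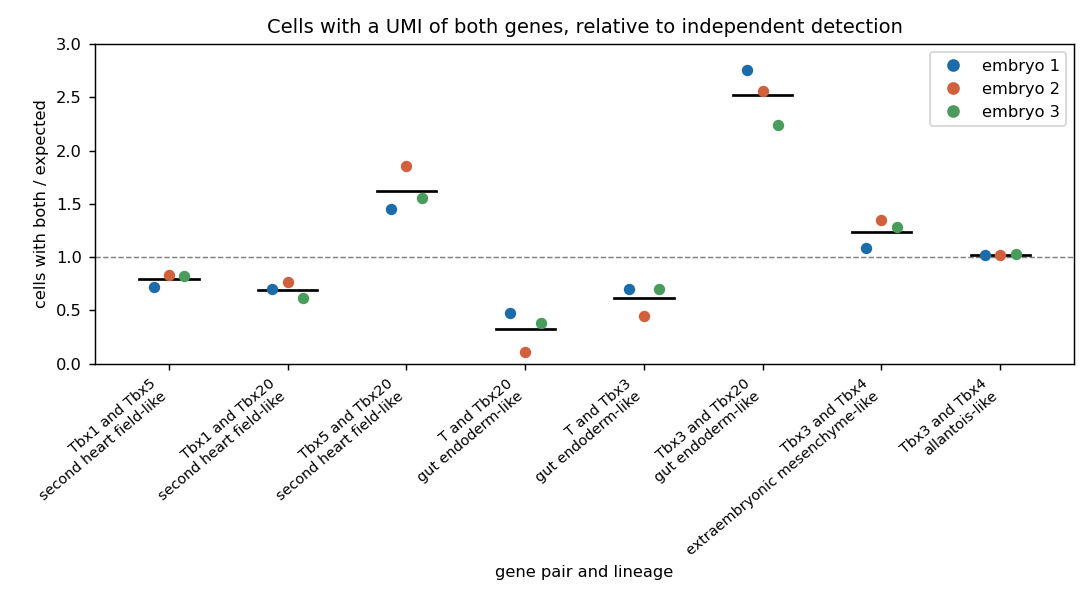
Observed over expected number of cells with a UMI of both genes (y axis, linear, dashed line at 1) for 8 pairs of T-box genes in 4 lineages (x axis). Points are embryos and bars are means; Tbx3 with Tbx20 in gut endoderm-like cells has the highest mean shown (2.52) and T with Tbx20 the lowest (0.325).

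**Figure D5:**
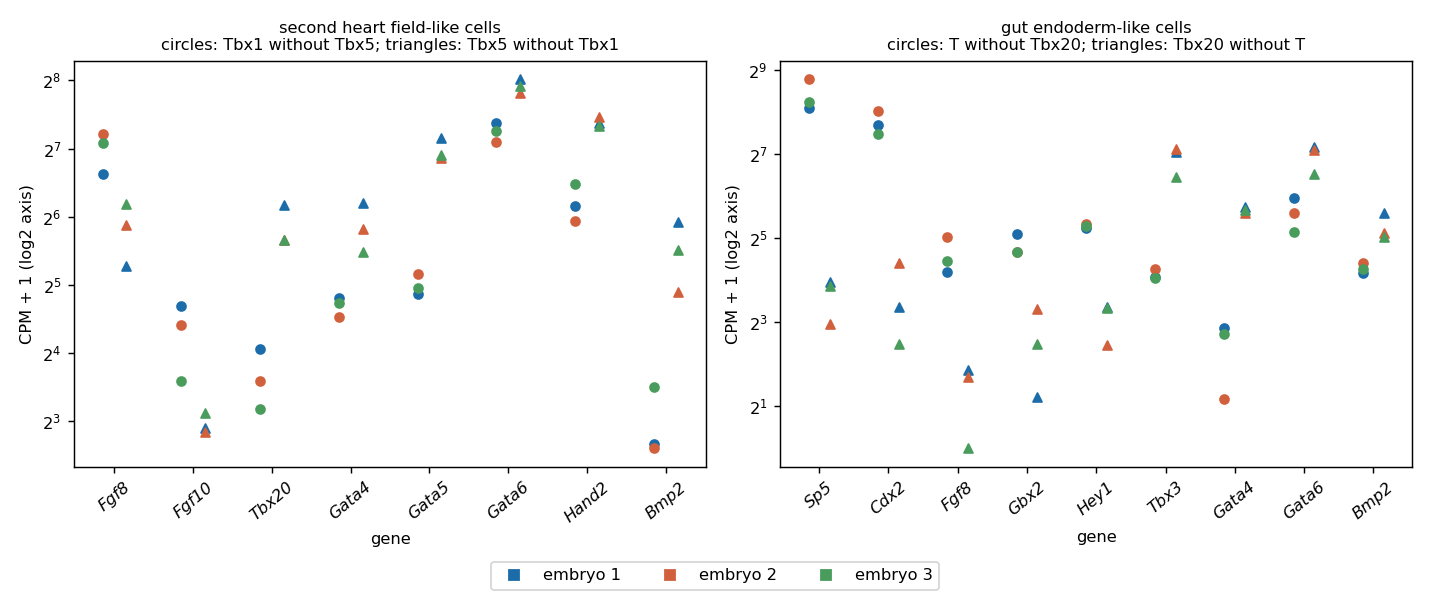
CPM + 1 (y axis, log2 scale) of linked genes and members (x axis) in second heart field-like (left) and gut endoderm-like cells (right), divided by which T-box gene had a UMI. Colours are embryos and shapes the kinds of cells; the genes shown were chosen because circles and triangles do not overlap.

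In allantois-like cells, Tbx3 and Tbx4 were both present in 533 of 708 cells against 520 expected. Each was in most of these cells, which leaves the ratio little room to leave 1. Tbx2 with Tbx3 gave 1.05 ± 0.0348, and 1.14 ± 0.0684 after thinning (66 cells against 58.9 expected), above 1 in every embryo in both. Tbx4 with Tbx20 gave 1.02 ± 0.0353, on both sides of 1 between embryos. After thinning it gave 1.26 ± 0.234 (SD, n = 3, 115 cells against 95.7 expected). T with Tbx2 gave 1.09 ± 0.266, also on both sides of 1, and 0.617 ± 0.391 on 4 cells after thinning. In extraembryonic mesenchyme-like cells, Tbx3 and Tbx4 gave 1.24 ± 0.135, and 1.76 ± 0.175 after thinning (SD, n = 3; 35 cells against 19.9 expected). T and Tbx20 in the same cells gave 0.954, and 0.614 after thinning, below 1 in every embryo in both.

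The other T-box genes were checked from a list of 8. Tbx6, a paraxial mesoderm factor that acts downstream of T, was at 131 ± 9.65 CPM in presomitic mesoderm-like cells (SD, n = 3). It was at 33.4 ± 13.9 in somitic mesoderm-, 25.5 ± 14.6 in left-right organizer- and 23.1 ± 1.38 in caudal epiblast-like cells. Against all other cells it was higher by 3.40 ± 0.13 in presomitic mesoderm-like cells (log2, SE, edgeR adjusted p = 1.8e-06). It also rose in somitic mesoderm- and caudal epiblast-like cells, and was not called in left-right organizer-like cells. In caudal epiblast- against presomitic mesoderm-like cells Tbx6 was lower by -2.52 ± 0.09 (edgeR adjusted p = 9.1e-09). T had the opposite direction in that pair. Mga, a large repressor with a T-box, was seen in 71.3% ± 12.9 of all kept cells and of the 17 lineages rose in left-right organizer- and primordial germ cell-like cells, by 0.64 ± 0.15 and 0.62 ± 0.18. The other 6 (Tbx10, Tbx15, Tbx19, Tbx21, Tbx22 and Tbr1) had 3 to 84 UMIs each in all kept cells.

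A list of 25 genes known as targets or partners of T-box factors, none of them a lineage marker, was followed in the same comparisons. In cardiomyocyte-like cells 7 of 23 tested rose and 8 fell. The 7 were the cardiac factors Gata5 (4.05 ± 0.13, log2, SE), Smarcd3 (2.95 ± 0.13), a chromatin remodelling subunit that binds Tbx5, Hand2 (2.83 ± 0.14), Gata6 (2.43 ± 0.11), Gata4 (2.38 ± 0.16), Bmp2 (2.24 ± 0.15) and Hey2 (1.52 ± 0.35). Nppa and Gja5, known targets of Tbx5, were not tested in these cells because their counts were too low. In second heart field-like cells 9 of 23 rose and 8 fell. Among those that rose were Fgf8 (1.52 ± 0.17) and Fgf10 (1.55 ± 0.22), which were 2 of the genes divided by Tbx1 and Tbx5. Of the followed genes linked with Tbx1, Fgf10 rose and Gbx2 fell in second heart field- and cranial mesoderm-like cells. In somitic mesoderm-like cells Fgf10 rose and Gbx2 was not called.

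In presomitic mesoderm-like cells 11 of 23 rose and 7 fell. Among those that rose were the genes linked with T: Fgf4 (2.86 ± 0.20), Sp5 (1.60 ± 0.09), Fgf8 (1.60 ± 0.09) and Cdx2 (0.56 ± 0.12), and those linked with Eomes: Lhx1 (1.86 ± 0.11), Mixl1 (1.5 ± 0.22) and Mesp1 (1.05 ± 0.24). Eomes itself was lower in these cells, by -1.39 ± 0.35 on 13 UMIs (log2, SE; edgeR adjusted p = 0.024). In caudal epiblast-like cells 9 of 23 rose and 10 fell, with Sp5 (1.84 ± 0.09), Fgf8 (1.90 ± 0.10), Cdx2 (1.90 ± 0.09) and Fgf4 (1.81 ± 0.25) among the former. Wnt5a, also linked with T, rose there and in presomitic mesoderm-like cells. Of the genes linked with Eomes, Mixl1 rose in caudal epiblast-like cells, Lhx1 fell and Mesp1 was not called. In left-right organizer-like cells, where T was highest, 7 of 23 rose and 4 fell. Of the genes linked with T, Sp5 (2.40 ± 0.16) and Cdx2 (0.85 ± 0.11) rose, while Fgf8 (0.09 ± 0.18) and Fgf4 (-0.18 ± 0.43) did not pass. Against caudal epiblast-like cells, with less T, Sp5 was higher (0.86 ± 0.13) and Fgf8 (-1.46 ± 0.18), Fgf4 (-1.66 ± 0.42) and Cdx2 (-0.70 ± 0.12) were lower. Wnt5a was called in neither of these comparisons. In axial mesoderm-like cells, with the next highest T, 4 of 23 rose and 7 fell. Of the genes linked with T, Sp5 rose there, Cdx2 and Wnt5a fell, and Fgf8 and Fgf4 were not called. Lhx1 (2.39 ± 0.17) also rose in left-right organizer-like cells against all others, whereas Gata4 (-2.39 ± 0.36) and Gata5 (-1.74 ± 0.50) fell. Mixl1 and Mesp1, linked with Eomes like Lhx1, were not called there. In extraembryonic endoderm-like cells, where Eomes was also higher, 4 of 23 rose and 17 fell, beside 70% of all genes called. Lhx1, Mixl1 and Mesp1 were all among those that fell. Allantois-like cells had 8 of 23 higher and 7 lower, including Hey2 (2.15 ± 0.22), Hand2 (1.87 ± 0.14) and Cdx2 (1.22 ± 0.13). Over all 17 lineages, 96 of 392 combinations tested with this list were higher and 182 lower; the background shares of called genes are those given for each lineage.

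Genes outside the marker lists whose levels followed a member most closely across the 17 lineages were found by Pearson correlation of log2(mean CPM + 1), as a description over 17 points from the same libraries. For Tbx5 these were Myocd (r = 0.953), Gdf2 (0.953) and 1010001N08Rik (0.949), for Tbx4 Hoxd10 (0.941), Hoxc10 (0.936) and Hoxc11 (0.934), and for Tbx20 Csrp2 (0.920), 5033428I22Rik (0.911) and Cables2 (0.899). T was followed by Klhl32 (0.890), Pcdhgc4 (0.888) and Capsl (0.885), Eomes by Uhrf1bp1l (0.917), Arhgap18 (0.896) and Gm13580 (0.880), and Tbx1 by Col23a1 (0.894), Abca9 (0.886) and Hlf (0.874). Tbx2 was followed by Klf14 (0.910), Ptpn11 (0.895) and Hoxc10 (0.881), Tbx3 by Ube2a (0.908), Stau1 (0.906) and Peg10 (0.899), and Tbx18 by Grm8 (0.813), Pcsk5 (0.791) and Flrt2 (0.771). Between members, the neighbouring genes Tbx2 and Tbx4 had r = 0.806 whereas the neighbouring genes Tbx3 and Tbx5 had 0.0982. Tbx2 with Tbx3 gave 0.743, Tbx3 with Tbx20 0.706, Tbx5 with Tbx20 0.565 and T with Eomes 0.553.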

How the data were processed

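Gene expression was measured by droplet single-cell RNA-seq in 3 wild-type embryos (1 library each). The authors aligned the reads with Cell Ranger 3.1.0 to mm10 and deposited raw UMI counts per feature for every barcode called a cell, without normalization. Barcodes were kept here with at least 1500 genes, at most 8500 (embryos 1 and 3) or 7500 (embryo 2) genes, at most 10% mitochondrial UMIs as in the study's methods, and at least 0.5% (573 barcodes removed), in place of the clusters the study removed. Kept cells held 191843539, 144790573 and 165506028 UMIs.

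Per marker, log2(CP10K + 1) was divided by the 90th percentile of positive cells and capped at 1. A cell joined the lineage with the highest mean score if that was at least 0.3, at least 0.1 above the next list (not required between left-right organizer and axial mesoderm or between cardiomyocytes and second heart field) and rested on 3 markers or more. These limits were set after marker values were seen. No T-box gene was a marker. The gene lists, lineages, pairs and members were chosen with earlier results of these data known. Scrublet, run in scanpy 1.11.5, called 0, 1 and 1 doublets and so did not work; removing the highest 6% of scores was an alternative.

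UMI counts were summed per embryo and lineage (sums of under 10 cells left out, which dropped erythroid-like cells of embryo 1) and tested with edgeR 4.0.16 in R 4.3.3 (glmQLFit and glmQLFTest, TMM, filterByExpr, Benjamini-Hochberg over all genes tested). SE is the log2 fold change divided by the square root of the F statistic. p-values measure the spread between 3 embryos. Sums of an embryo come from the same animal, so they are paired: in 26 comparisons the deviations of the paired sums from their lineage means correlated at 0.0625 to 0.434 across genes. The fit without the block was the main one. In simulated counts, 52.0% of 2-fold and 61.6% of 4-fold changes were recovered for cardiomyocytes against all other cells (4.27% of calls false). Against second heart field, 76.8% and 98.0% were recovered (7.49% false). The simulated sums shared no embryo effect, unlike the paired sums tested here, so these rates need not hold for the data. Shares of cells count barcodes with at least 1 UMI, and limits for 0 use 3 counts; both cover counting error only. Named genes were the 9 members, the 8 other T-box genes, the 25 linked genes and the 3 most alike genes per member among those with at least 5 CPM in a lineage. Coordinates came from GENCODE M21 and promoters from RefSeq (6 of 9 members matched). Alternatives were DESeq2 1.42.0, RLE size factors, testing all genes, leaving out each embryo, adding the embryo to the fit as a block, a further marker, removal of high doublet scores, low-mitochondrial barcodes kept and thinning to 5000 UMIs.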

Additional observations from a re-analysis of the deposited data

How the results depend on the processing

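There were 56 named differences (22 lineages where a member was higher, 34 called pairs). Of these, 45 kept their direction and their side of the threshold in every alternative that could be fitted. Of the 11 others, 2 were lineage calls. All 11 are named beside the results, some of them without the value in the alternative. The number of members higher in a lineage was 22, and 20 to 25 over the alternatives; the number lower was 77, and 51 to 73 when an embryo was left out. The lowest, 51, came without embryo 3; without embryo 2 or 3 the erythroid-like cells, left in 1 embryo, could not be fitted. Without embryo 1, Tbx18 between extraembryonic mesenchyme and cardiomyocytes had too few counts to test. Between pairs, 21 were higher and 13 lower, and 16 to 19 and 10 to 12 when an embryo was left out. The difference of Tbx1 between cranial mesoderm and second heart field reversed to -0.0034 with a further marker required; the cause was not tested. With the embryo as a replicate block, 25 members were higher and 92 lower in lineages and 25 higher and 16 lower in pairs: 18 and 7 calls were added and 0 lost, while calls over all genes rose by 1.05 to 2.24 times (median 1.70). Thinning to 5000 UMIs per cell moved the share of cells with a UMI to 91.4% (T, left-right organizer), 2.32% (Eomes, same cells), 27.4% (Tbx1, cranial mesoderm), 15.4%, 54.7% and 50.7% (Tbx2, Tbx3 and Tbx4, allantois) and 39.5% and 36.3% (Tbx5 and Tbx20, cardiomyocytes), since fewer molecules are read per cell. It moved the co-detection ratios of Tbx1 with Tbx5 and with Tbx20 in second heart field-like cells to 0.603 and 0.576, and that of T with Tbx20 in gut endoderm-like cells to 0. Depth limits Eomes, Tbx2 and Tbx18 most: absence of a UMI in a cell does not show absence of RNA.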

Other observations

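The 7928 kept cells without a lineage were described as they stand. They held on average a UMI of 1.22 ± 0.115 of the 9 members (SD, n = 3), and of 0.449 ± 0.0450 after thinning to 5000 UMIs per cell. No member was seen in 33.4% ± 3.88 of them, and at least 3 members in 14.3% ± 2.46.

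Tbx10, which had 47 UMIs in all kept cells, had 29 of them in extraembryonic endoderm-like cells, where it was higher than in all other cells by 3.95 ± 0.41 (log2, SE; edgeR adjusted p = 2.5e-05), beside 70% of all genes called in that comparison.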
